A study of Mus musculus with 12 samples.

Results

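Liver RNA of mice given doxorubicin (DOX) together with the compound K27 was compared with liver RNA of mice given saline, to describe which transcripts differed from untreated liver at the end of the treatment. The comparison used 6 of the 12 libraries of the series, the DOX + K27 libraries D1, D2 and D3 against the Saline libraries A1, A2 and A3, here called replicates 1, 2 and 3 of each group, and 3317 of the 3799 rows of the deposited table, those with a mean of at least 1 over the 12 libraries. All animals were male C57BL/6J mice aged 8 weeks with no transgene. DOX + K27 mice were injected with doxorubicin at 10 mg/kg into the peritoneum on day 0 and day 7, and were given K27 at 50 mg/kg into the stomach every other day from day 2. Saline mice had saline in place of the drug, and the sample labels call them vehicle. Dosing into the stomach is described only for the mice given doxorubicin. Livers were taken on day 20. DOX alone (B1, B3 and B4) and DOX + K35 (C1, C2 and C4, with K35 at 50 mg/kg) had the same injections, with vehicle or K35 in place of K27. The labels number the DOX and DOX + K35 libraries differently from the table, so that B3, B4 and C4 are known by group only. Nothing in the labels says that the libraries of a group came from separate cages or batches, so that p-values measure the spread between these samples.

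Doxorubicin is an anthracycline that traps topoisomerase on DNA and breaks the strands. Broken DNA stabilises the transcription factor p53, which turns on genes for cell cycle arrest, such as *Cdkn1a* (p21), and its own inhibitor *Mdm2*. Interferons are secreted cytokines that switch on a set of antiviral genes in the cells that sense them, and damaged DNA in a cell can start this response. K27 is an analog of K35, and both came from a screen for compounds that disperse aggregates of the glycolytic enzyme PKM2.

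Saline replicate 3 stood apart from the other Saline libraries. The acute phase genes *Saa1* and *Saa2*, which encode serum amyloid A secreted by inflamed liver, were at 7.88 and 12.5 FPKM (*Saa1*) and 4.10 and 7.92 FPKM (*Saa2*) in Saline replicates 1 and 2, but at 1117 and 701 FPKM in Saline replicate 3. *Orm3*, another acute phase gene, was at 2.38, 10.4 and 116 FPKM in replicates 1, 2 and 3. The log2(FPKM + 1) values of Saline replicate 3 correlated across genes at 0.941 and 0.950 with the other Saline libraries, which correlated at 0.987 with each other. The counts over all genes, the genes that passed and the gene lists described are therefore given with and without Saline replicate 3. Hepatocyte markers were high in all 6 libraries (5 of the 18 markers listed were in the table, and summed to 9564 to 10280 FPKM in Saline and 11750 to 13170 FPKM in DOX + K27). The sum followed *Apoa1*, the 1 marker of the 5 with a positive difference, and the median difference of the 5 was -0.18 on the log2 scale (-0.28 without Saline replicate 3). The share of the 13 mitochondrially encoded genes in all FPKM was 53% ± 7.77 (SD, n = 3) for Saline and 57.2% ± 9.49 (SD, n = 3) for DOX + K27 (exact permutation test, two-sided, p = 0.5, where 3 against 3 cannot go below 0.1). DOX alone had a share of 73.6% ± 10.7 (SD, n = 3), with 62.2% in B1 and 83.3% in B4. Relative to the Saline mean of each gene, the median over all genes was -0.055 in B1 and -0.691 in B4. Values of DOX alone given below were not corrected for this shift. Depth per library is unknown, since the table has no read counts.

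Across the 3317 genes, 4 rose in DOX + K27 against Saline and 0 fell (0.121% and 0% of the genes tested; limma on log2(FPKM + 1) over all 12 libraries, Benjamini-Hochberg adjusted p under 0.05). The 4 genes were *Gria3*, *Phlda3*, *Slfn4* and *Mx1*. The filter on the mean included the DOX + K27 libraries, and *Gria3* and *Mx1* reached a mean of 1 only with them. In Saline, DOX, DOX + K35 and DOX + K27, group means were 0.125, 2.09, 0.726 and 1.56 FPKM for *Gria3*. For *Mx1* they were 0.667, 1.54, 0.338 and 3.13 FPKM. *Ddx60* and *Slfn8*, given below, also reached the filter only with the DOX + K27 libraries. The p-values of these genes are not independent of that filter. Without adjustment, 159 genes were higher and 38 lower at p under 0.05 (4.79% and 1.15%). In 364 genes all 3 DOX + K27 libraries lay above all 3 Saline libraries, and in 98 genes all 3 lay below (11% and 2.95%). The median difference over all genes was 0.00 on the log2 scale. The rows tested come from a set that the authors' deposit names as differential genes. Shares and adjusted p-values therefore refer to that set and not to all liver transcripts, and the choice may rest on these same libraries. The calls depend on single libraries, as 0 genes passed without Saline replicate 1, without Saline replicate 2 or without DOX + K27 replicate 1, 1 passed without DOX + K27 replicate 2 and 7 passed without DOX + K27 replicate 3. With the replicate number as a block, in a fit of these 2 groups alone, 0 genes passed. In that fit 483 were higher and 295 lower at an unadjusted p under 0.05. The same 2 groups without the block had 3 genes passing, with 241 higher and 66 lower at that p.

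**Figure D1:**
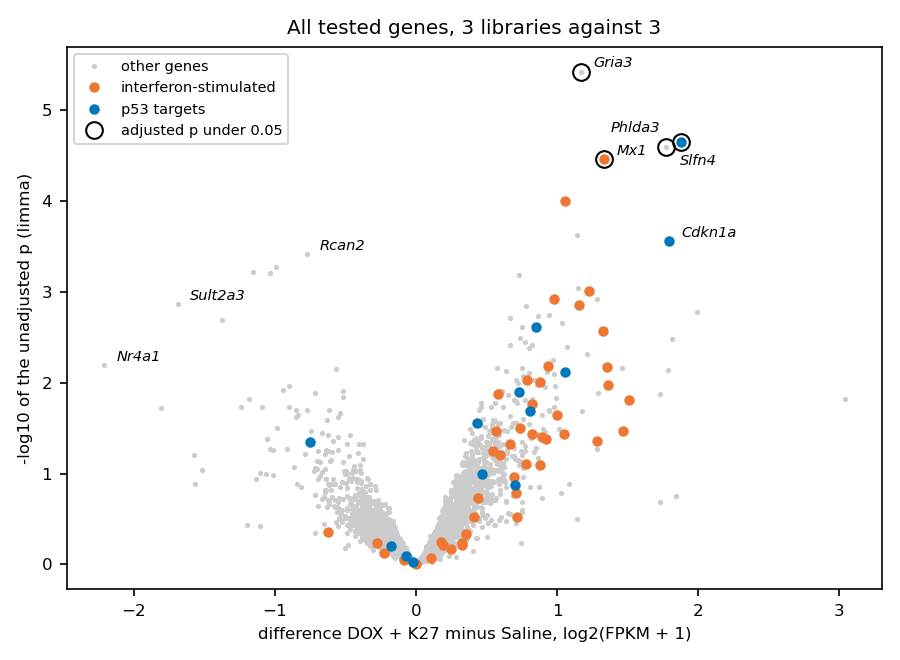
Difference DOX + K27 minus Saline on the log2(FPKM + 1) scale (horizontal axis) against the −log10 of the unadjusted limma p (vertical axis) for each of the 3317 genes tested, as points. The 4 ringed genes passed the threshold and all lie on the right, and the coloured points of the interferon-stimulated and p53 target lists lie mostly on the right as well.

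*Gria3* encodes a subunit of the AMPA-type glutamate receptor of neurons (X:41400854-41678601 on GRCm38, plus strand, with the small gene *Gm22413* inside it). It was at 0.162, 0.0962 and 0.118 FPKM in Saline and at 1.92, 1.01 and 1.77 FPKM in DOX + K27. The groups were far apart at a very low level, and the difference of 1.17 ± 0.16 (SE, log2 scale) passed with an adjusted p of 0.0126 (limma). In DOX alone *Gria3* was at 2.02, 2.18 and 2.06 FPKM, so that values in DOX + K27 were below DOX alone in each library, but the difference of -0.29 did not pass (adjusted p = 0.228). Without Saline replicate 3 the difference from Saline was 1.17, with an adjusted p of 0.0202.

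*Phlda3*, a p53 target that inhibits AKT signalling (1:135766119-135769136, plus strand), was at 0.701, 1.08 and 1.20 FPKM in Saline and at 7.91, 5.38 and 5.78 FPKM in DOX + K27. No library of one group reached the other. The difference was 1.88 ± 0.31 (SE, log2 scale; adjusted p = 0.0282, limma) and 1.95 without Saline replicate 3 (adjusted p = 0.0337). In DOX alone *Phlda3* was at 5.83, 4.60 and 1.59 FPKM.

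*Slfn4*, a schlafen family gene that interferon induces in myeloid cells (11:83175186-83190216, plus strand), was at 0.459, 0.730 and 1.59 FPKM in Saline and 6.70, 7.17 and 3.12 FPKM in DOX + K27. Saline replicate 3 was the highest Saline library and DOX + K27 replicate 3 the lowest of the treated group, without overlap. The difference was 1.77 ± 0.29 (SE, log2 scale; adjusted p = 0.0282, limma) and 2.01 without Saline replicate 3 (adjusted p = 0.0192).

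*Mx1*, an interferon-induced gene of a GTPase family (16:97447035-97462907, minus strand), was at 0.349, 0.373 and 1.28 FPKM in Saline and 3.70, 3.49 and 2.20 FPKM in DOX + K27. The lowest DOX + K27 library stood above the highest Saline library. The difference was 1.33 ± 0.23 (SE, log2 scale; adjusted p = 0.0289, limma) and 1.58 without Saline replicate 3 (adjusted p = 0.00896). In DOX alone *Mx1* was at 1.54, 1.79 and 1.29 FPKM and *Slfn4* at 0.970, 2.69 and 1.76 FPKM. Members of the schlafen, Mx and Oas families resemble one another, so that reads shared between them may have been divided by the counting.

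**Figure D2:**
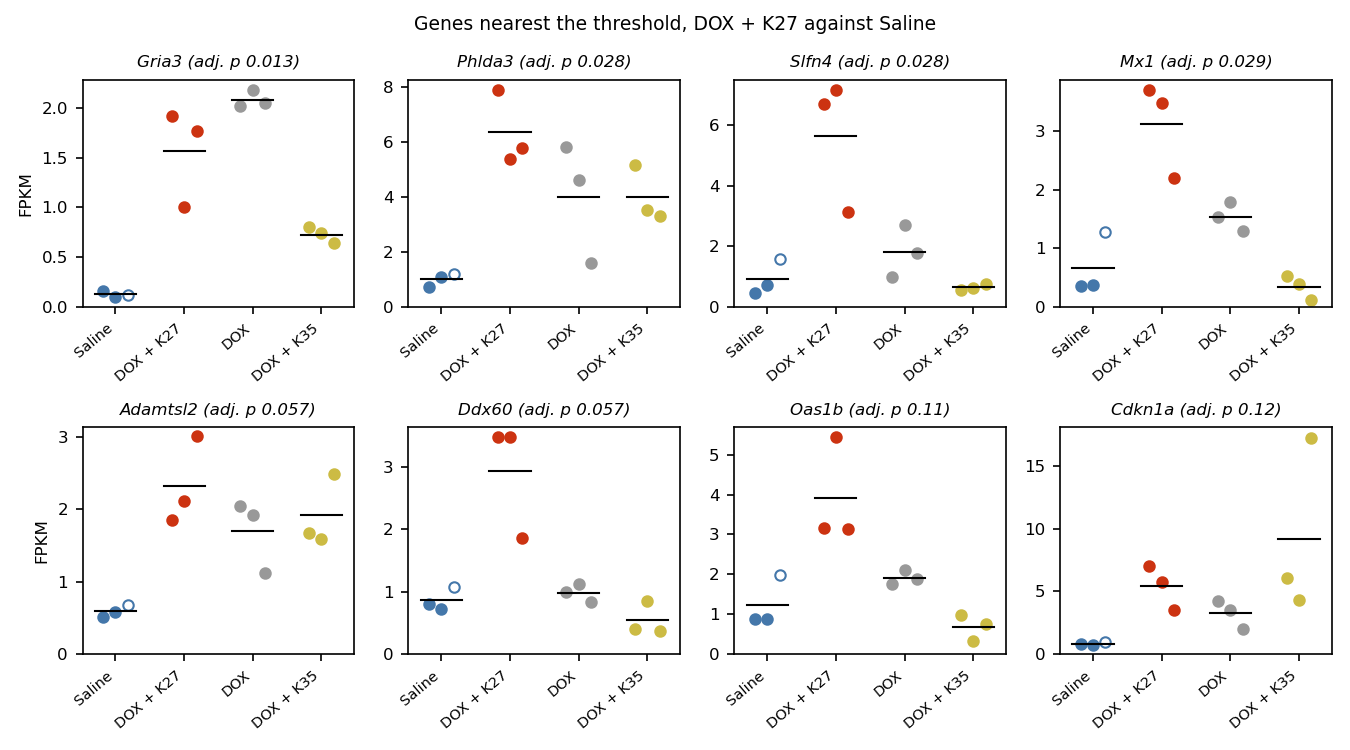
FPKM (vertical axes, each from 0) of the 8 genes with the smallest p among those higher in DOX + K27, in the 12 libraries as points by group, with the group mean as a line and Saline replicate 3 as an open circle. The Saline libraries lie below all DOX + K27 libraries in each panel.

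The next 4 genes by p had values that did not overlap either, but they did not pass. *Adamtsl2*, which encodes a secreted protein that binds matrix microfibrils, was at 0.509, 0.582 and 0.674 FPKM in Saline and 1.86, 2.12 and 3.01 FPKM in DOX + K27 (adjusted p = 0.0566, limma). *Ddx60*, a helicase of antiviral RNA sensing, was at 0.808, 0.715 and 1.08 against 3.49, 3.48 and 1.87 FPKM (adjusted p = 0.0566). *Oas1b*, a member of the 2′-5′ oligoadenylate synthetase family annotated as a polymorphic pseudogene, was at 0.865, 0.873 and 1.98 against 3.17, 5.44 and 3.13 FPKM (adjusted p = 0.114). For *Cdkn1a*, the p53 target that arrests the cell cycle, the values were 0.786, 0.674 and 0.958 against 7.04, 5.75 and 3.51 FPKM (adjusted p = 0.116). The *Cdkn1a* difference of 1.80 ± 0.38 (SE, log2 scale) was larger than that of *Mx1*, with a wider spread among the DOX + K27 libraries.

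The p53 target list of 26 genes had 13 genes tested, of which 1 (*Phlda3*) passed. The list was written from general knowledge with earlier results of these data known. At an unadjusted p under 0.05, 7 of the 13 were higher and 1 (*Btg2*) lower, against 4.79% and 1.15% of all genes, and 7 had all DOX + K27 libraries above all Saline libraries, against 11%. The median difference of the list was 0.71 on the log2 scale, against 0.00 over all genes, and it was 0.77 without Saline replicate 3. Of the 13 genes, 9 had a positive difference and the others a negative one. *Mdm2*, the ubiquitin ligase that degrades p53, was at 5.70, 4.96 and 6.75 FPKM in Saline and 9.996, 11.2 and 12.5 FPKM in DOX + K27. *Bax*, which permeabilises the mitochondrial outer membrane in apoptosis, was at 18.9, 16.9 and 27.4 against 38.5, 30.2 and 43.1 FPKM. *Gdf15*, a stress-induced hormone, was at 4.78, 1.51 and 4.41 against 6.88, 6.49 and 10.9 FPKM. All of these DOX + K27 values lay above all Saline values, and none of the 3 genes passed (adjusted p 0.290, 0.657 and 0.513, limma). *Ei24*, the tested member with the highest mean, was at 56.7, 48.5 and 39.6 against 45.5, 49.4 and 33.4 FPKM, and these overlapped. DOX alone had a median of 0.60 for the same list against Saline, where the median of all genes was -0.34.

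The interferon-stimulated gene list of 60 genes had 45 genes tested, of which 1 (*Mx1*) passed. This list, too, was written with earlier results of these data known. At an unadjusted p under 0.05, 24 of the 45 were higher and 0 lower, against 4.79% and 1.15% of all genes tested, and in 8 all DOX + K27 libraries lay above all Saline libraries, against 11%. The median difference was 0.73 on the log2 scale, and 41 of 45 genes had a positive difference. Relative to the Saline mean of each gene, the median over the list was 0.99, 1.09 and 0.16 in DOX + K27 replicates 1, 2 and 3, and -0.42, -0.20 and 0.62 in Saline replicates 1, 2 and 3. DOX + K27 replicates 1 and 2 thus stood above every Saline library, whereas replicate 3 stood below Saline replicate 3. The DOX alone libraries B1, B3 and B4 had list medians of -0.12, -0.10 and -0.50 on the same scale. DOX alone had a median difference of -0.25 from Saline for this list, against -0.34 over all genes. *Isg15*, a ubiquitin-like modifier, was at 9.36, 13.1 and 33.5 FPKM in Saline and 50.3, 79.4 and 24.8 FPKM in DOX + K27. *Ifit1*, which binds foreign RNA, was at 2.62, 2.60 and 5.81 against 12.8, 25.3 and 4.64 FPKM. In both genes DOX + K27 replicate 3 lay within the Saline range, and neither passed (adjusted p = 0.801 and 0.634). *Ifi27*, the tested member with the highest mean, was at 52.0, 63.2 and 81.0 against 144, 111 and 72.0 FPKM, and its groups overlapped.

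**Figure D3:**
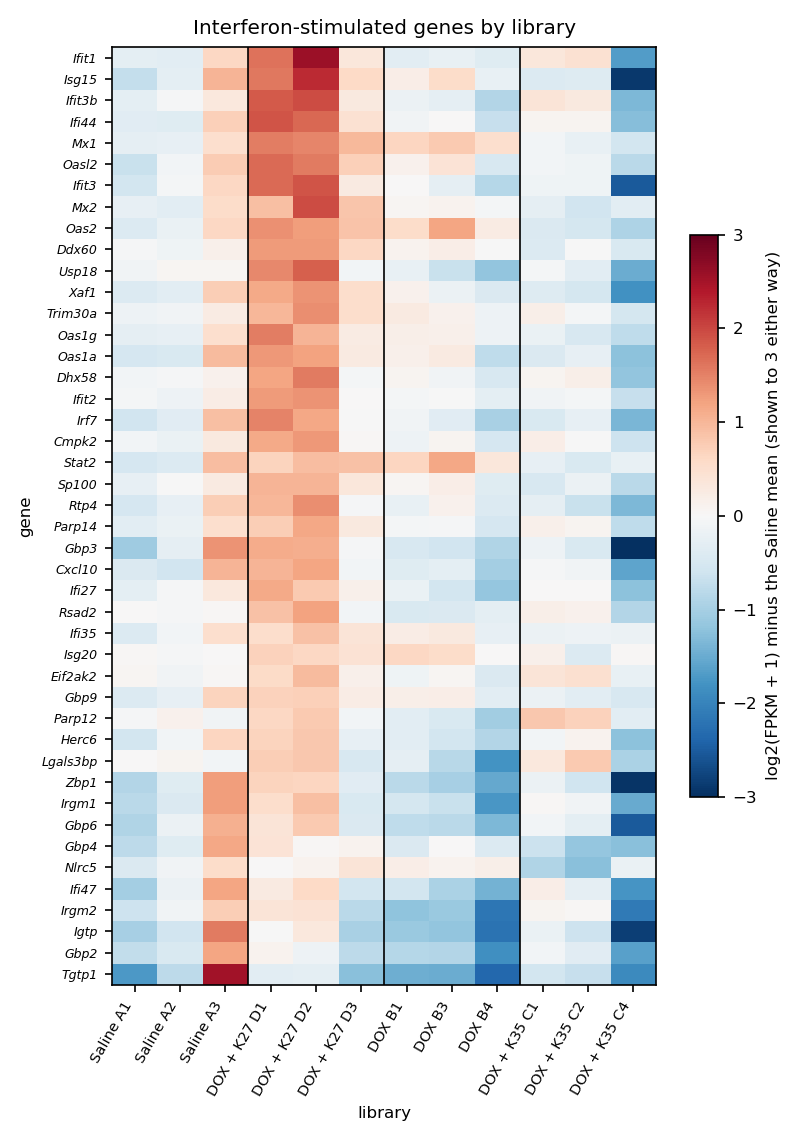
Log2(FPKM + 1) of 44 of the 45 interferon-stimulated genes tested (rows) in each library (columns), minus the mean of the Saline libraries, on a colour scale limited to 3 either way. DOX + K27 replicates 1 and 2 are raised over most of the list, with medians of 0.99 and 1.09, and DOX + K27 replicate 3 (0.16) lies below Saline replicate 3 (0.62).

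Without DOX + K27 replicate 3, 3 interferon-stimulated genes passed, where 7 of all 3317 genes did. The list median was then 1.05, against 0.05 over all genes. Without DOX + K27 replicate 1 or 2, 0 passed, with medians of 0.63 and 0.56. Of all genes, 0 and 1 passed in these settings. Without Saline replicate 3, 2 passed (*Mx1* and *Oas2*), where 8 of all genes passed as higher. In that setting 26 of the list were higher at an unadjusted p under 0.05 (7.3% of all genes were). In 31 of the 45 all DOX + K27 libraries then lay above the 2 Saline libraries left, against 28.3% of all genes, and the median was 0.97. Markers of Kupffer cells, the macrophages of the liver, moved with Saline replicate 3. The 8 markers in the table of 15 listed summed to 80.1 to 217 FPKM in Saline, with the highest value in replicate 3, and to 58.9 to 106 FPKM in DOX + K27. The 2 monocyte and neutrophil markers of 16 summed to 30.9 to 72.9 FPKM in Saline, again highest in replicate 3, and to 27.3 to 37.0 FPKM in DOX + K27. The 2 lymphocyte markers of 21 summed to 3.33 to 9.60 and 5.88 to 9.16 FPKM. No marker was at 0 in any library. Their part in the result was not tested, and in bulk tissue fewer cells of a type cannot be told from less RNA per cell.

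DOX + K35 mice received the analog at the same dose and times, which allowed 1 pair of compounds to be compared, with p-values adjusted over all 3317 genes. *Mx1* was at 0.523, 0.384 and 0.108 FPKM in DOX + K35, lower than in DOX + K27 by a log2 difference of -1.62 ± 0.23 (SE; adjusted p = 0.00544, limma). *Slfn4* was at 0.554, 0.609 and 0.740 FPKM in DOX + K35 (-1.97 ± 0.29, adjusted p = 0.00544). *Ddx60* was at 0.406, 0.850 and 0.365 FPKM (-1.34 ± 0.20, adjusted p = 0.00544). These 3 genes were lower in DOX + K35 than in DOX + K27. All genes of this paragraph were named for being high in the same DOX + K27 libraries against Saline. That choice favours a lower value in DOX + K35, so the p-values are not an independent test of the compounds. *Gria3* was at 0.804, 0.738 and 0.636 FPKM in DOX + K35 (-0.55 ± 0.16, adjusted p = 0.0798). *Phlda3* was at 5.15, 3.53 and 3.31 FPKM (-0.56 ± 0.31, adjusted p = 0.213) and *Cdkn1a* at 6.03, 4.31 and 17.3 FPKM (0.49 ± 0.38, adjusted p = 0.324). A difference between the compounds was not detected for the last 3 genes, which does not show that they are alike.

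Promoter sequences are shown for 5 genes of the comparison that had one in the RefSeq table (GRCm38.p6; 17 of the 23 genes named from the comparisons matched), to show which hold an interferon-response or p53 motif. Each runs from 250 bases before to 50 bases after the transcript start, 5′ to 3′ in the gene's direction. Capitals mark the core of the interferon-stimulated response element (GAAA repeated with 2 bases between, on either strand), or the p53 decamer, the unit that p53 sites repeat.
Ddx60, chr8:61927837-61928136, plus strand: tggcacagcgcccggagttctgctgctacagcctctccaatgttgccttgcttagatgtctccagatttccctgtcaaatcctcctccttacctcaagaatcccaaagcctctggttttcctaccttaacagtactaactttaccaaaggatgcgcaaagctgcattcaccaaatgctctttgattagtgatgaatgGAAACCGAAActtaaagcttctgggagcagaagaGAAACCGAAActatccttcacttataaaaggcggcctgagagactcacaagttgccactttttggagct
Slfn8, chr11:83020761-83021060, minus strand: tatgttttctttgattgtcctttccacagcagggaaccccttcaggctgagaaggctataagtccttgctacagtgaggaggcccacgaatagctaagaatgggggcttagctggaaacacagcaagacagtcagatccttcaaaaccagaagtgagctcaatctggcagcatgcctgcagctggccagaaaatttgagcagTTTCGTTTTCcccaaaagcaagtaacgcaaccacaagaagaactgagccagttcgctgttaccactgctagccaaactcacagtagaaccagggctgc
Cdkn1a, chr17:29090729-29091028, plus strand: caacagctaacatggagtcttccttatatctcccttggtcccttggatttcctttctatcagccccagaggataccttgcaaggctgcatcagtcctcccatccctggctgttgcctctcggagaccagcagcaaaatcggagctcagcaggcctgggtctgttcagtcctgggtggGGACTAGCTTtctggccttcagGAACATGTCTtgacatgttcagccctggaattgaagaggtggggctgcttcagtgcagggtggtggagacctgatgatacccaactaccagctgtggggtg
Phlda3, chr1:135765835-135766134, plus strand: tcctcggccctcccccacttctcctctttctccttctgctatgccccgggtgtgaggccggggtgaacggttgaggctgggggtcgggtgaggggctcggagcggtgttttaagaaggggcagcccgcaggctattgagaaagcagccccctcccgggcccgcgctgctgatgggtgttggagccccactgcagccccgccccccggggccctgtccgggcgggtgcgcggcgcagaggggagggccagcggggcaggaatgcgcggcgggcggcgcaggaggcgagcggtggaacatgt
Slfn4, chr11:83174936-83175235, plus strand: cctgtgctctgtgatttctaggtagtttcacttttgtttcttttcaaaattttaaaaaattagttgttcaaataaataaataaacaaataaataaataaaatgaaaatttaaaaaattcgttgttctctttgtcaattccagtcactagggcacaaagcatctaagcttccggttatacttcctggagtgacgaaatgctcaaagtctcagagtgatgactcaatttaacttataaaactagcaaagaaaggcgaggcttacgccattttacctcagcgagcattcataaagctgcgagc
*Ddx60* held the interferon core starting 53 and 19 bases before the start, and *Slfn8* held it 48 and 136 bases before the starts of its 2 entries. *Cdkn1a* held p53 decamers starting 73 and 51 bases before the start of 1 of its 2 transcripts listed, and *Phlda3* and *Slfn4* held none of these letters in the window. The interferon core was in 3.44% of all 32851 promoters and in 18 of the 31 interferon-stimulated genes tested that had a promoter. Shares of promoters count each entry, whereas list counts are of genes with the motif in any of their entries. A gene with several entries can thus count more readily, and the 2 are not like measures. The p53 decamer was in 8.36% of promoters, in 6 of 12 p53 targets tested with a promoter and in 6 of 31 interferon-stimulated genes. It was also in *Cd72* (153 bases before the start) and in 1 entry of *Slc25a25* (172 bases before), which are on neither list. The E-box CACGTG was in 7.15% of promoters, the D-box TTATGTAA in 0.94% and the PPAR element (AGGTCA repeated with 1 base between) in 0.04%. The E-box was in *Irs2*, in 4 of the 12 p53 targets (among them *Bax* and *Gdf15*) and in 0 of the 31 interferon-stimulated genes. The interferon and p53 motifs were chosen after the values had been seen, and the matches are descriptions.

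Among the genes lower in DOX + K27, 0 passed in the fit of all libraries. The 8 with the smallest p are given as values. *Rcan2*, a calcineurin inhibitor, was at 3.19, 3.10 and 3.50 FPKM in Saline and 1.66, 1.64 and 1.21 FPKM in DOX + K27, with a difference of -0.77 ± 0.17 (SE, log2 scale; adjusted p = 0.141, limma). DOX alone had 1.02, 0.769 and 0.587 FPKM of *Rcan2* and fell against Saline by 1.26 on the log2 scale (adjusted p = 0.00422). The DOX + K27 values of this gene lay between those of the other 2 groups. *Il1b*, an inflammatory cytokine overlapped by the antisense gene *Il1bos*, was at 4.05, 5.09 and 4.15 against 2.30, 1.23 and 1.75 FPKM (adjusted p = 0.169). *Sik1*, a salt-inducible kinase of cAMP signalling, was at 10.9, 11.4 and 9.52 against 6.28, 3.62 and 3.19 FPKM (adjusted p = 0.169). For *Sult2a3*, a sulfotransferase of steroids and bile acids, the values were 13.1, 8.04 and 5.01 against 2.05, 2.47 and 1.16 FPKM (adjusted p = 0.241). The groups did not overlap in any of these genes. *Slc25a25*, a mitochondrial ATP-Mg carrier overlapped by *Naif1*, was at 83.4, 54.3 and 33.2 against 22.6, 22.1 and 15.8 FPKM (adjusted p = 0.274). *Mob3a* and *Gm14403* differed by -0.57 and -0.90 on the log2 scale (adjusted p = 0.513 and 0.595). These 7 genes also did not pass or overlap in the fit of the 11 libraries other than Saline replicate 3. Their adjusted p ran from 0.0783 (*Slc25a25*) to 0.396 (*Mob3a*). A fit of the 2 groups alone, given below, called some of them.

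*Nr4a1*, an orphan nuclear receptor induced within minutes of a stimulus, turned on Saline replicate 3. It was at 33.4 and 41.8 FPKM in Saline replicates 1 and 2, at 3.74 FPKM in Saline replicate 3, and at 4.69, 4.91 and 1.09 FPKM in DOX + K27. The groups overlapped through that single Saline library, and the difference of -2.21 ± 0.70 (SE, log2 scale) had an adjusted p of 0.513. Without Saline replicate 3, *Nr4a1* fell by 3.22 on the log2 scale (adjusted p = 0.0202, limma). DOX alone was at 4.24, 2.52 and 1.61 FPKM.

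Without Saline replicate 3, 9 genes passed (0.271%), of which 8 rose and 1 fell (0.241% and 0.0301% of the genes tested). At an unadjusted p under 0.05, 242 were higher and 60 lower (7.3% and 1.81%). The 8 were *Slfn4*, *Phlda3*, *Mx1*, *Oas2*, *Oas1b*, *Cd72*, *Gria3* and *Slfn8*, among them the 4 of the fit with all libraries, and the gene that fell was *Nr4a1*. *Oas2*, an interferon-induced synthetase, was at 1.32, 1.69 and 3.77 FPKM in Saline and 6.99, 6.37 and 4.62 FPKM in DOX + K27 (1.47 without Saline replicate 3, adjusted p = 0.0460; 1.16 with it, adjusted p = 0.241). *Slfn8* was at 0.664, 0.435 and 1.58 against 2.53, 3.00 and 1.62 FPKM (1.11 and 0.86, adjusted p = 0.0460 and 0.269). *Cd72*, which encodes a surface protein of B cells and overlaps *Tesk1*, was at 0.619, 1.26 and 5.49 against 4.07, 3.41 and 3.74 FPKM (1.31 and 0.72, adjusted p = 0.0288 and 0.864). In *Cd72* Saline replicate 3 was the highest of all 6 libraries. *Fst*, *Gsta1*, *Irs2* and *Efna1* were lower by 0.98 to 1.66 in size but did not pass (adjusted p 0.0609 to 0.111). Their values in Saline replicate 3 lay near or within the DOX + K27 range, as in *Efna1*, at 66.6, 53.3 and 16.4 against 22.6, 17.8 and 14.9 FPKM. A fit of the Saline and DOX + K27 libraries alone, without Saline replicate 3, called 43 genes higher and 16 lower (1.3% and 0.482%). Among them were 11 interferon-stimulated genes and 4 p53 targets, all higher, with *Cdkn1a* among the p53 targets (adjusted p = 0.00271, limma). The 16 lower genes included *Sult2a3* (adjusted p = 0.00271), *Slc25a25* (0.00916), and *Il1b* and *Sik1* (0.0309 each). They also included *Nr4a1*, *Fst*, *Gsta1*, *Irs2* and *Efna1*. That fit takes its spread from fewer libraries.

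**Figure D4:**
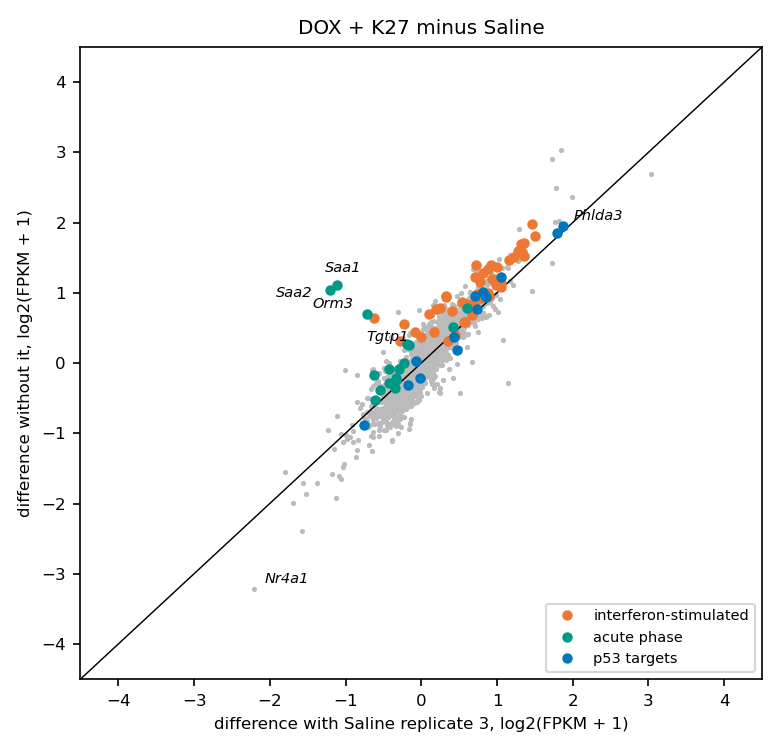
Difference DOX + K27 minus Saline on the log2(FPKM + 1) scale with Saline replicate 3 (horizontal axis) and without it (vertical axis), 1 point per gene, with the line of equal values. Most of the 45 interferon-stimulated genes lie above the line, *Saa1* and *Saa2* change sign, and *Nr4a1* moves from -2.21 to -3.22.

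Several acute phase genes depended on Saline replicate 3. Of 35 acute phase genes listed, 17 were tested and 0 passed. Their median difference was -0.35 with Saline replicate 3 and -0.09 without it. *Saa1* was at 29.2, 20.1 and 20.1 FPKM and *Saa2* at 17.5, 10.9 and 10.97 FPKM in DOX + K27, above Saline replicates 1 and 2 and far below Saline replicate 3. The *Saa1* difference was -1.11 with that library and 1.12 without it (adjusted p = 0.943 and 0.385, limma). *Il1rn*, the interleukin-1 receptor antagonist, was at 2.92, 2.84 and 4.34 against 1.70, 2.20 and 2.02 FPKM, a difference of -0.54 (adjusted p = 0.674).

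Genes of matrix and of stellate cells, the collagen-producing cells of the liver, were mostly higher without passing. Of 11 matrix genes tested, 0 passed, 5 were higher at an unadjusted p under 0.05 and 7 had all DOX + K27 libraries above all Saline libraries, against 4.79% and 11% of all genes. The median difference was 0.43. When Saline replicate 3 was left out, 1 gene was higher at that p (7.3% of all genes were) and the median was 0.40. Then 7 of the 11 still lay above, against 28.3% of all genes. *Col1a1*, a chain of type I collagen, was at 0.793, 0.686 and 0.443 FPKM in Saline and 1.68, 1.20 and 2.37 FPKM in DOX + K27. *Col3a1*, a chain of type III collagen, was at 3.68, 3.28 and 2.03 against 5.88, 4.53 and 6.07 FPKM. *Acta2*, the smooth muscle actin of activated stellate cells, overlapped at 2.13, 3.63 and 3.11 against 1.997, 3.41 and 6.58 FPKM. The 4 stellate markers in the table of 16 summed to 6.68 to 9.24 FPKM in Saline and 11.4 to 18.6 FPKM in DOX + K27. Without DOX + K27 replicate 3, 1 matrix gene was higher at an unadjusted p under 0.05, where 93 of all 3317 genes were.

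Of 42 targets of the lipid-sensing receptor PPARA and genes of fatty acid oxidation, 0 passed, 1 was higher at an unadjusted p under 0.05, and the median difference was -0.01, against -1.22 in DOX alone (-0.34 over all genes). By library, the list median in DOX alone ran from -0.65 (B1) to -1.92 (B4), where all genes had -0.055 and -0.691. Without Saline replicate 3 the median of DOX + K27 from Saline was -0.22, against -0.02 over all genes. Then 9 of the 42 had all DOX + K27 libraries below the 2 Saline libraries left, against 26.4% of all genes. *Acot3*, a peroxisomal acyl-CoA thioesterase, was at 48.5, 51.7 and 18.9 FPKM in Saline, 52.5, 54.3 and 36.9 FPKM in DOX + K27, and 7.17, 6.64 and 5.10 FPKM in DOX alone. The DOX libraries fell below both groups for *Acot3* (adjusted p = 0.0480 against Saline and 0.0368 against DOX + K27), while DOX + K27 differed from Saline by 0.37, with a 95% interval of -0.56 to 1.30. *Rab30*, a small GTPase of the Golgi, was at 5.61, 4.97 and 4.41 FPKM in Saline and 2.22, 5.84 and 3.33 FPKM in DOX + K27, a difference of -0.39 with an interval of -0.95 to 0.18. Both intervals still hold changes of more than 1.5-fold. The 2 differences were -0.08 and -0.46 without Saline replicate 3.

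Other metabolic lists lay further below 0 when Saline replicate 3 was left out, with 0 genes passing in each either way in the fits of all 4 groups. The median of 13 genes of fatty acid and triglyceride synthesis went from -0.12 to -0.45, with 8 of 13 below both remaining Saline libraries. *Me1*, malic enzyme, which supplies NADPH for this synthesis, was at 97.3, 80.6 and 19.2 FPKM in Saline and 56.7, 43.1 and 27.6 FPKM in DOX + K27, a difference of -0.38 with Saline replicate 3 and -1.10 without it (adjusted p = 0.943 and 0.507, limma). Its lowest value of the 6 libraries was in Saline replicate 3. For 14 genes of gluconeogenesis and glycogen the median went from -0.21 to -0.41 (8 of 14 below), and for 17 Ugt and sulfotransferase genes from -0.29 to -0.53 (9 of 17 below). Of all genes, 26.4% lay below in the same way.

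Lists of amino acid metabolism and plasma proteins had medians somewhat below 0. The 18 urea cycle and amino acid genes had a median of -0.33 and the 20 complement and coagulation genes one of -0.29, with 0 passing in each. *Tat*, tyrosine aminotransferase, was at 740, 697 and 637 FPKM in Saline and 501, 469 and 299 FPKM in DOX + K27, with no overlap (-0.74 ± 0.32, adjusted p = 0.801, limma). *C3*, the central complement protein, was at 1195, 1141 and 1173 against 1087, 954 and 598 FPKM. DOX + K27 replicate 3 was the lowest library of both genes. Without that library the medians of the lists were -0.13 and -0.09, and without Saline replicate 3 they were -0.47 and -0.22. *Apoa1*, the main protein of high-density lipoprotein, went the other way, at 5037, 5151 and 5617 against 7447, 8467 and 10160 FPKM (0.71 ± 0.29, adjusted p = 0.764).

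*Cyp7a1*, the rate-limiting enzyme of bile acid synthesis, had one of the larger differences that did not pass in the fit of all libraries. It was at 16.1, 34.9 and 37.3 FPKM in Saline and 92.4, 70.0 and 154 FPKM in DOX + K27, a difference of 1.82 ± 0.52 (SE, log2 scale; adjusted p = 0.353, limma), and of 2.03 without Saline replicate 3 (adjusted p = 0.239). In the fit of the 2 groups alone without Saline replicate 3, *Cyp7a1* passed (adjusted p = 0.0175, limma). The groups did not overlap, and DOX alone was at 79.1, 82.5 and 61.2 FPKM. The other bile acid gene named, *Cyp8b1*, overlapped, at 74.7, 52.2 and 12.2 against 64.7, 82.2 and 91.9 FPKM. *Mup8*, a major urinary protein gene of a family of near-identical copies, had the largest difference of the genes tested that carry a symbol from Ensembl, at 2.61, 39.8 and 4.83 against 80.1, 59.96 and 95.5 FPKM (3.04 ± 1.10, adjusted p = 0.632), and its reads may be shared among copies.

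Among 23 genes listed for senescence and its secreted factors, 5 were tested and 0 passed. *Cdkn1a*, *Gdf15* and *Il1b* are given above, the first 2 higher and *Il1b* lower without overlap. *Cxcl10*, an interferon-induced chemokine, was at 3.47, 3.05 and 11.3 FPKM in Saline and 11.4, 12.8 and 4.71 FPKM in DOX + K27, and overlapped. The median of the 5 was 0.71, and it ran from 0.42 (without Saline replicate 2) to 1.22 (without Saline replicate 3) when a library was left out. The 9 genes tested of those higher in male than in female liver had a median of 0.65 (0.59 without Saline replicate 3), with 8 of 9 differences positive, 0 passing and *Mup8* among them.

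**Figure D5:**
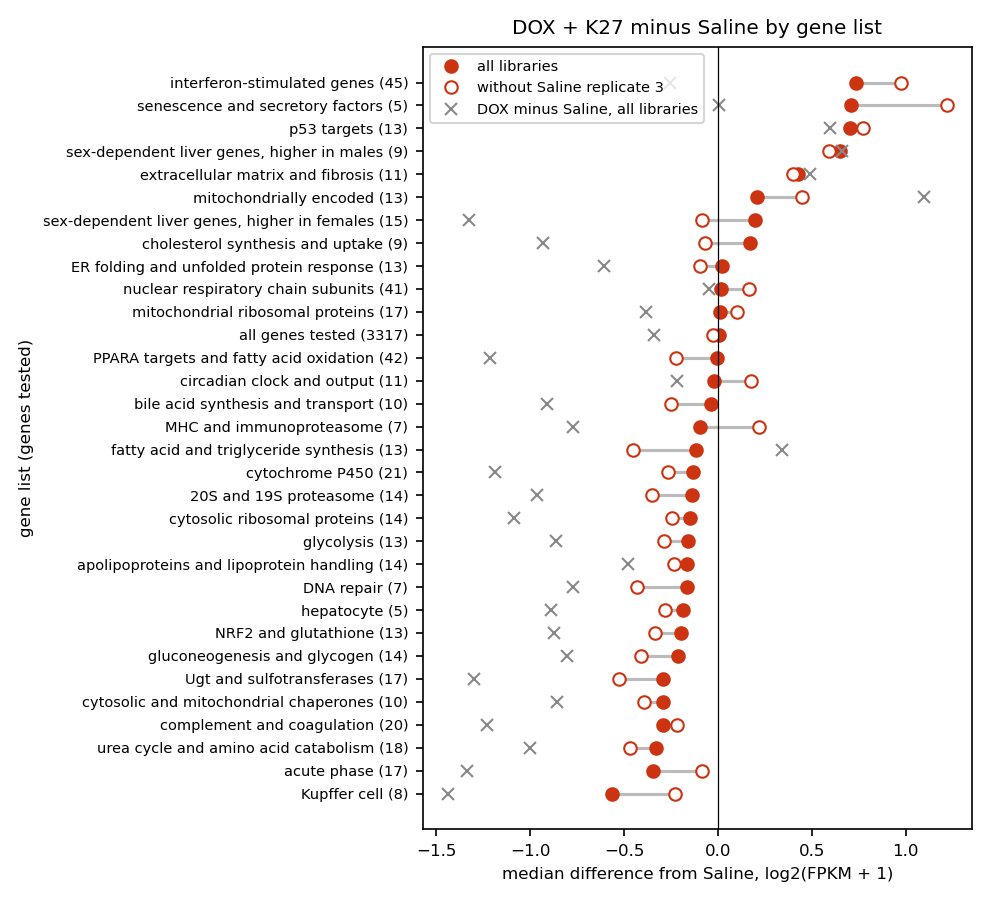
Median difference from Saline on the log2(FPKM + 1) scale (horizontal axis) for each gene list with at least 5 genes tested (vertical axis, number of genes in brackets), for DOX + K27 with all libraries (filled), without Saline replicate 3 (open) and for DOX alone (crosses). The interferon-stimulated and p53 lists lie at 0.73 and 0.71 for DOX + K27, the list higher in males at 0.65, and the 5 senescence genes at 0.71 (1.22 without Saline replicate 3).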

How the data were processed

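Total liver RNA was extracted with TRIzol, selected with poly-T beads, made into libraries with a kit that does not mark the strand, and sequenced. The submitters' processing notes name HISAT2, DESeq2, edgeR and GRCm38, with no roles. The table that the authors deposited holds length-scaled values, taken here to be FPKM (fragments per kilobase, scaled to library size) since its header gives no unit, for 3799 rows of their selection, to which percentages refer. The deposit names these rows as differential genes, so that they are not all genes measured. Whole reads could not be recovered from low values (of 279 low genes, 4 shared a ratio between Saline replicates 1 and 2 with another), so depth is unknown and precision is that of the replicates.

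Values were transformed as log2(FPKM + 1), which understates changes of low genes. Genes with a mean under 1 over the 12 libraries, those of DOX + K27 included, were left out. The 3317 others were fitted with limma 3.58.1 (lmFit, eBayes with trend; R 4.3.3) in a one-way layout over 12 libraries, and p-values were adjusted by Benjamini-Hochberg with a threshold of 0.05. The fit was tested on simulated data. Single values were compared by exact two-sided permutation. Positions came from GENCODE M21 (3519 of 3519 Ensembl identifiers found). Figures were drawn with Python 3.11.15 and matplotlib 3.10.9.

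The members and lists were chosen with earlier results of these data known. Named were the 8 genes with the smallest p in a direction where fewer than 5 passed, the genes past the threshold without Saline replicate 3, and, of each list, the members that passed or those with the largest change and the highest mean. *Bax*, *Mdm2*, *Isg15*, *Ifit1*, *Btg2*, *Il1rn*, *Acot3* and *Rab30* were named after their values were seen. Libraries A and D with the same number deviated together from their group means (correlations across genes of 0.258, 0.176 and 0.474), each over 0.1, so the numbers were treated as pairs in a blocked fit, although the labels name nothing shared. Libraries with different numbers correlated as well, at 0.302 (Saline replicate 2 with DOX + K27 replicate 1) and 0.380 (Saline replicate 1 with DOX + K27 replicate 2). Alternative settings were no filter, a pseudocount of 0.1, median-ratio and quantile scaling, leaving out the 20 highest genes or the mitochondrially encoded genes, the 2 groups alone, the block, no trend, stricter thresholds, and each library left out. List counts by library left out were added after the data were seen. Some genes are not reported here.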

Additional observations from a re-analysis of the deposited data

How the results depend on the processing

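The count of 4 genes that differed between DOX + K27 and Saline was 5 with a pseudocount of 0.1 and 3 in a fit of these 2 groups alone. It was 10 with no filter on low values, 1 with median-ratio scaling and 1 with quantile normalization. With the replicate block, fitted on these 2 groups alone, it was 0. It was also 0 with robust moderation and no trend, and at an adjusted p under 0.01. Leaving out 1 library at a time gave 0 to 9, with 0 genes without Saline replicate 1, Saline replicate 2 or DOX + K27 replicate 1, and 9 without Saline replicate 3. Leaving out libraries outside the comparison, which lend only their spread, gave 1 (without DOX + K35 replicate 2) to 7 (without C4). The cause was not tested. Under the block, 483 genes were higher and 295 lower at an unadjusted p under 0.05, against 241 and 66 in the 2 groups without it. Without trend the counts were 146 and 38. At that p, higher and lower genes numbered 139 and 82 with median-ratio scaling and 111 and 102 with quantile normalization, against 159 and 38.

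Without Saline replicate 3, the 9 genes became 4 with median-ratio scaling, 1 with quantile normalization, 27 without the 20 highest genes and 59 in the fit of the 2 groups alone. The difference in mitochondrial share of 4.29 percentage points ran from -1.08 (without DOX + K27 replicate 3, where it reversed) to 8.78 when a library was left out. Of the genes given values above, *Saa1*, *Saa2*, *Orm3*, *Acta2* and *Me1* kept their sign in 20 of 21 alternatives. For *Saa1*, *Saa2* and *Orm3* the sign reversed when Saline replicate 3 was left out. The other alternatives all kept that library, so the direction of these genes rests on it. *Gria3*, *Phlda3*, *Slfn4* and *Mx1* kept their sign in all 21. Alternatives that need read counts were not run.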

Other observations

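Below the mean of 1 FPKM, 4 rows passed in a limma fit with no filter. *Oas3*, a further 2′-5′ oligoadenylate synthetase, was at 0.347, 0.224 and 0.546 FPKM in Saline and 2.30, 1.81 and 0.877 FPKM in DOX + K27. *Atp8b5*, a phospholipid flippase gene, was at 0.0344, 0.166 and 0.0742 against 0.731, 0.597 and 0.541 FPKM. The newly assembled locus Mus_musculus_newGene_3048 was listed at 0 in all Saline libraries and was at 3.60, 2.72 and 2.28 FPKM in DOX + K27. Mus_musculus_newGene_706 was at 0.0814, 0.0907 and 0.133 against 1.30, 1.40 and 2.44 FPKM. All 4 had no overlap between the groups. Of the 280 newly assembled loci, 188 were tested with the filter.

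The sulfotransferases split in direction. *Sult2a7* was at 3.67, 14.3 and 3.52 FPKM in Saline and 35.1, 23.9 and 12.1 FPKM in DOX + K27, while *Sult2a2* was at 504, 508 and 411 against 324, 351 and 241 FPKM (1.73 ± 0.61 and -0.65 ± 0.43, SE, log2 scale; adjusted p = 0.607 and 0.914, limma). *Fkbp5*, a glucocorticoid-induced chaperone, was at 6.36, 6.46 and 6.21 against 10.7, 10.5 and 16.8 FPKM (adjusted p = 0.864). Of the 4 endothelial markers in the table of 15 listed, 0 passed and 3 had a positive difference, with a median of 0.28. *Mrc1*, the mannose receptor, was the exception, at 4.98, 4.43 and 5.32 against 3.43, 3.00 and 3.40 FPKM (adjusted p = 0.817), while *Stab1*, *Lyve1* and *Pecam1* differed by 0.37, 0.31 and 0.25 on the log2 scale.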
